A study of Nannochloropsis oceanica strain IMET1 with 6 samples.

Results

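This report sets the chromatin contacts of *Nannochloropsis oceanica* IMET1 cells after 1 day of nitrogen deprivation (ND; group N1) beside those of nitrogen-replete (NR) cells (group C0). The members are all pairs of 1-kb bins that the deposited lists of significant interactions hold for either group, keyed by the chromosome and position of both bins. There were 5711 such bin pairs in all. Of these, 668 were listed at N1 only, 4665 at C0 only and 378 in both groups. The data come from Hi-C, with 2 replicates per group and thus 4 of the 6 libraries of the series. Replicates were pooled before the interactions were called, so each group has a single value per bin pair and no test between the groups could be run.

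Both groups were wild-type IMET1 grown in continuous light in f/2 medium with nitrate, a seawater medium. C0 cells were harvested in logarithmic growth, before the transfer. N1 cells came from the same kind of culture, were washed and suspended in nitrogen-free f/2 medium, and were kept there for 1 day, by the labels in weaker light than before. Cells kept in NR medium for that day are not among the libraries, so the loss of nitrogen cannot be told apart here from the wash, the change of light or the day of culture.

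Hi-C joins DNA ends that lie close together in the nucleus, and each sequenced junction counts as 1 contact between 2 bins. Contacts within a chromosome (cis) are most frequent between neighbouring bins and become rarer with distance, because the DNA between them tethers them. Contacts between chromosomes (trans) are rarer per bin pair. Pairs of bins that meet far more often than their distance predicts can mark folding into loops, clustered chromosome ends or clustered silent chromatin. *Nannochloropsis* is a small marine alga that slows its growth and stores oil when nitrogen runs out, and chromatin folding is studied in it as a possible layer of that response. Nuclear gene annotation of this genome was not used here, so positions are given and no gene is named.

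The 2 groups were not listed with the same sensitivity, and this bears on every count given here. The listed pairs held 29137 cis and 463 trans contacts at N1, and 221877 cis and 3007 trans contacts at C0. These sums also follow the number of pairs in each list, so they do not measure sequencing depth. By the study's own sequencing statistics, the groups had similar numbers of mapped reads. N1 had far fewer valid pairs, the read pairs kept as contacts, and depth here refers to these. From each contact count and its deposited p-value the expected count of the bin pair was recovered. An average pair of bins means one with bias factors of 1. At a distance of 2 kb it was expected to share 10.3 contacts at N1 and 22.6 at C0. At 3 kb the expected counts were the same as at 2 kb. At 4 kb they were 7.58 at N1 and 18.9 at C0. An excess over expected at 2 kb may thus include part of the decay with distance, which was not tested. At 10 kb the expected counts were 2.93 at N1 and 8.69 at C0, and in trans they were 0.0137 at N1 and 0.0426 at C0. The N1 over C0 ratio of expected contacts was thus 0.457 at 2 kb, 0.338 at 10 kb and 0.321 in trans. To be listed, an average pair at 2 kb needed 33 contacts at N1, which is 3.19 times the expected count, and 52 contacts at C0, which is 2.30 times. At 10 kb the limits were 17 contacts at N1 (5.80 times) and 29 at C0 (3.34 times), and in trans they were 4 contacts at N1 and 5 at C0. A bin pair therefore had to stand further above its expected count to be listed at N1 than at C0.

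After 1 day of ND, most of the cis bin pairs in the N1 list were not in the list of NR cells, and most of those in the longer C0 list were not in the N1 list. The cis lists held 948 bin pairs at N1 (95% exact Poisson interval 889 to 1010) and 4456 at C0 (4326 to 4589). They had 373 in common, which left 575 at N1 only and 4083 at C0 only. The common pairs were 39.3% of the N1 list (95% exact binomial interval 36.2% to 42.5%) and 8.37% of the C0 list (7.57% to 9.22%). The trans lists held 98 bin pairs at N1 (79.6 to 119) and 587 at C0 (540 to 636), with 5 in common. These were 5.1% of the N1 trans list (1.68% to 11.5%) and 0.852% of the C0 trans list (0.277% to 1.98%). These and the later intervals reflect counting error, and the spread between cultures is not known from pooled replicates.

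Looser matching raised the shares in common. The share that unrelated pairs would reach in lists this dense was not computed, so a near match is no sign of a kept contact. Within 1 bin at both ends, 458 of the N1 cis pairs (48.3%) had a counterpart at C0, and 539 of the C0 cis pairs (12.1%) had one at N1. Within 5 bins these were 701 (73.9%) of the N1 list and 1395 (31.3%) of the C0 list. Trans pairs gained few, with 7 of 98 N1 pairs and 7 of 587 C0 pairs matched within 5 bins. Bins can recur without their pairs, and a shared pair makes both of its bins shared. A higher share of bins than of pairs therefore says little, and the share for unrelated bins was not computed. The cis lists used 1643 bins at N1 and 4816 at C0, and 940 were in both, which is 57.2% of the N1 bins and 19.5% of the C0 bins. Of the 575 cis pairs at N1 only, 309 had 1 bin and 45 had both bins in the C0 cis list, while 221 had neither.

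The cis pairs listed at N1 were shorter than those listed at C0 only. Of the cis pairs at N1 only, 87.5% (84.5% to 90.1%) spanned at most 5 kb, against 58.2% (56.7% to 59.7%) of those at C0 only. The figure for the shared pairs was 94.1% (91.2% to 96.3%). At 2 kb, the closest spacing that is listed, lay 420 of the 575 pairs at N1 only and 1194 of the 4083 at C0 only. Between 6 and 10 kb there were 39 pairs at N1 only and 714 at C0 only, and beyond 100 kb there were 15 at N1 only and 426 at C0 only.

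The shares in common were highest within 5 kb in both lists. The share of the N1 list that was also listed at C0 was 40.2% of 702 pairs at 2 kb, 49.4% of 77 at 3 kb and 41.3% of 75 at 4 to 5 kb, with intervals that overlap. It was 23.5% of 51 pairs at 6 to 10 kb (12.8% to 37.5%) and 28.6% of 21 pairs beyond 100 kb (11.3% to 52.2%). The share of the C0 list that was also listed at N1 was smaller in each longer class up to 100 kb. It was 19.1% (282 of 1476) at 2 kb, 7.05% (38 of 539) at 3 kb, 4.35% (31 of 712) at 4 to 5 kb, 1.65% (12 of 726) at 6 to 10 kb, 0.850% (3 of 353) at 11 to 20 kb and 0.459% (1 of 218) at 21 to 100 kb. Beyond 100 kb it was 1.39% (6 of 432, 0.511% to 3%). The gap between the listing limits also widened with distance: the fold over expected that an average pair needed was 1.39 times as high at N1 as at C0 at 2 kb and 2.01 times as high at 20 kb.

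**Figure D1:**
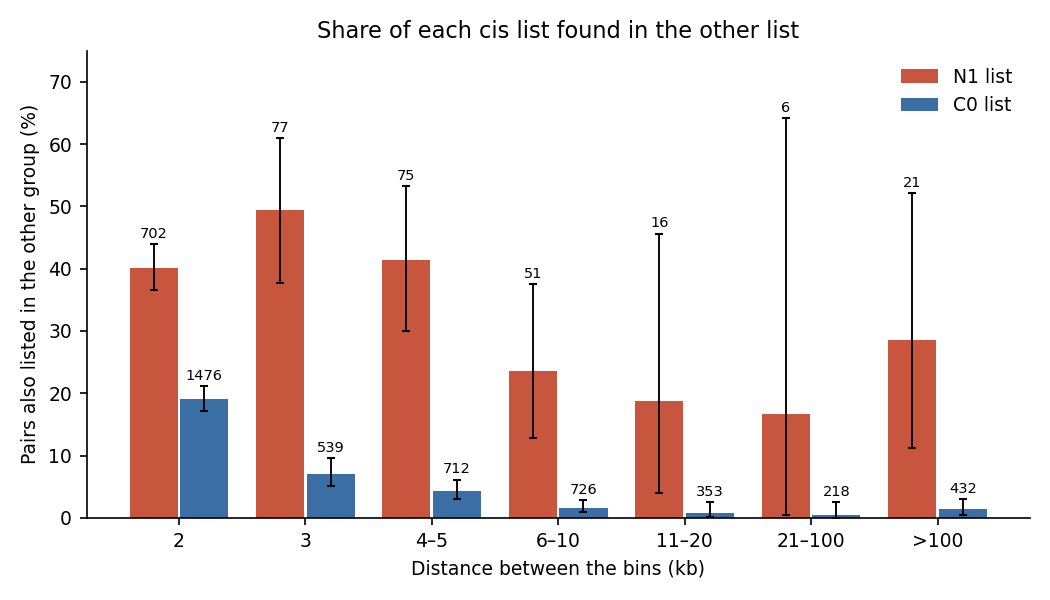
Share of the cis bin pairs of each list that is also in the other list (y axis, %) by the distance between the bins (x axis, kb), for N1 (red) and C0 (blue); lines are 95% exact binomial intervals and the numbers give the pairs in the list. The N1 share lies between 16.7% and 49.4% in all classes, while the C0 share is 19.1% at 2 kb and at most 1.65% beyond 5 kb.

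The 373 shared cis pairs are the only ones with a contact count in both groups, and all but 1 had fewer contacts at N1 than at C0. Their contacts summed to 11389 at N1 and 29381 at C0, a ratio of 0.388 (exact 95% interval 0.379 to 0.396). The median count was 29 at N1 (range 5 to 67) and 72 at C0 (range 6 to 206). The median N1 over C0 ratio of contacts was 0.400, with quartiles of 0.320 and 0.505. Counts in the 2 groups went together over the pairs, with a Spearman correlation of 0.590 (n = 373 pairs), or 0.528 over the 282 pairs at 2 kb, given as a description because the pairs share libraries and the distance.

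Whether the shared pairs were relatively stronger or weaker at N1 depended on the bias factors, the deposited correction for how visible each bin is. With each group's own bias factors, the observed over expected count was higher at N1 in 371 of 373 pairs, with a median N1 over C0 ratio of 1.68 (quartiles 1.45 and 1.98, range 0.93 to 3.52). Of these pairs, 85 (22.8%) were at least 2-fold higher at N1 and 0 (0%) at least 2-fold lower. By an approximate counting limit the 0 allows a share of up to 0.804%. It largely follows from the higher fold needed at N1, which makes a pair 2-fold lower there unlikely to be listed at all. The counting interval lay above 1 in 218 pairs. Set against the expected count of an average pair at the same distance, with no bias factors, the median ratio was 0.89 (quartiles 0.71 and 1.14) and 236 of the 373 pairs were lower at N1. On this scale 4 pairs (1.07%) were at least 2-fold higher at N1 and 10 (2.68%) at least 2-fold lower, with counting intervals above 1 in 11 pairs and below 1 in 63. The direction of the shift is therefore not settled by these lists. The listing limits bear on it too, since a pair had to pass a higher observed over expected count at N1 than at C0 to be among the shared pairs at all.

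**Figure D2:**
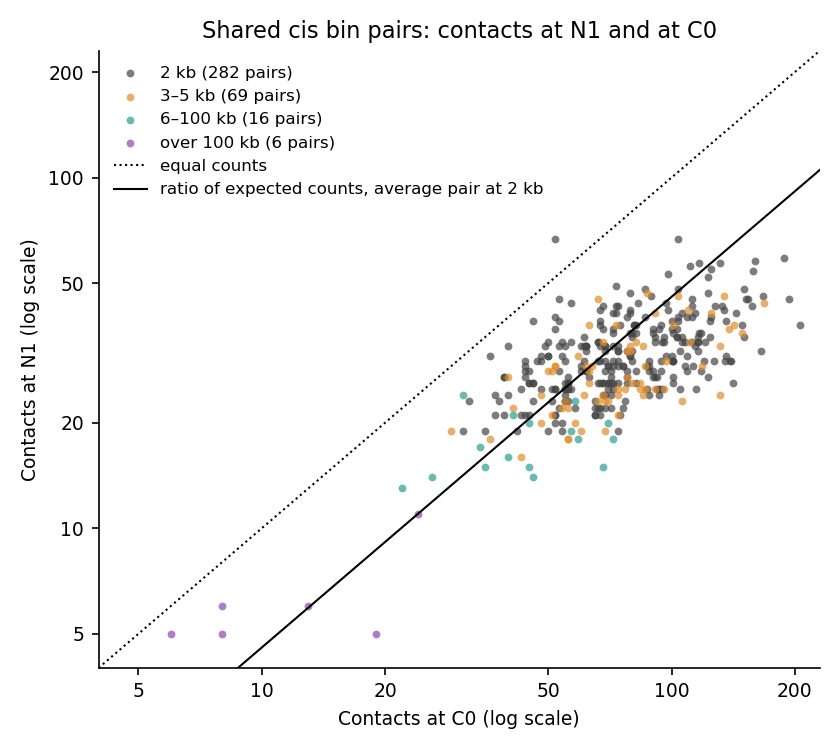
Contacts at N1 (y axis) against contacts at C0 (x axis) of the 373 shared cis bin pairs, both on log scales, coloured by distance; the dotted line marks equal counts and the solid line the ratio of expected counts of an average pair at 2 kb, 0.457. A single pair lies above the line of equal counts.

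The bias factors moved with this result. The product of the factors of both bins had a median of 0.652 at N1 and 1.19 at C0 in the shared cis pairs, and the N1 over C0 ratio of the products had a median of 0.530 and was below 1 in 363 pairs. Over the pairs, the log2 ratio of contacts and the log2 ratio of the products had a Pearson correlation of 0.778 (n = 373 pairs, a description). Per bin, the factors had a median of 0.850 in the 1806 bins with a usable factor at N1 and of 1.03 in the 4976 at C0. In the 974 bins with a usable factor in both groups, the medians were 0.801 at N1 and 1.07 at C0, and the factor was lower at N1 in 855 bins and higher in 119. Another 27 bins had a usable factor at N1, with a median of 1.46, and none at C0. The factors of bins that no list holds are not in the files, so it was not tested whether the whole genome moved the same way.

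**Figure D3:**
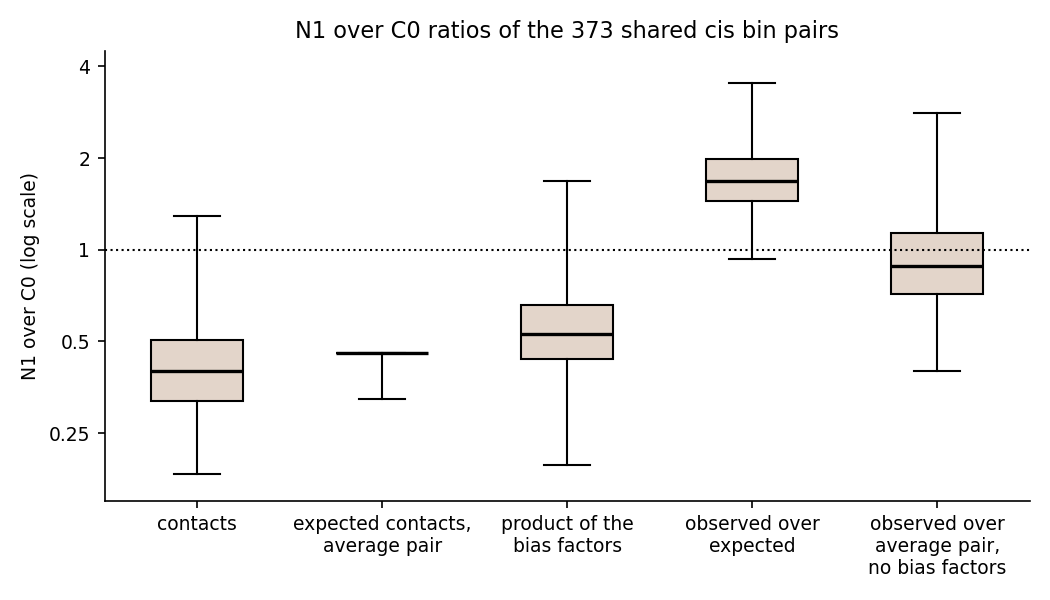
N1 over C0 ratios (y axis, log scale) of the 373 shared cis bin pairs for contacts, expected contacts of an average pair, the product of the bias factors, observed over expected contacts, and observed contacts over an average pair without bias factors; boxes give quartiles and median, whiskers the full range, and the dotted line a ratio of 1. The median is 1.68 with bias factors and 0.89 without.

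The strongest shared cis contacts joined bins 2 kb apart. Positions are given on version V2 of the IMET1 genome, as chromosome and first and last base of a bin, counted from 1. chr15:981001-982000 and chr15:983001-984000 shared 67 contacts at N1 and 104 at C0. This was 12.8 times the expected count at N1 and 4.94 times at C0, and the N1 over C0 ratio was 2.58 (1.87 to 3.55) with bias factors and 1.41 (1.02 to 1.93) without. It is one of the few pairs whose interval lies above 1 on both scales. chr27:172001-173000 and chr27:174001-175000 also shared 67 contacts at N1, against 52 at C0. This was the single shared cis pair with more contacts at N1, with a ratio of 1.67 (1.15 to 2.45) with bias factors and 2.82 (1.93 to 4.13) without.

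Other strong pairs changed direction with the bias factors. chr22:622001-623000 and chr22:624001-625000 shared 59 contacts at N1 and 188 at C0, with a ratio of 2.91 (2.13 to 3.91) with bias factors and 0.69 (0.50 to 0.92) without. chr28:383001-384000 and chr28:385001-386000, chosen after the values were seen, shared 38 contacts at N1 and 206 at C0, the highest count of the C0 list, with a ratio of 1.31 (0.90 to 1.86) with bias factors and 0.40 (0.28 to 0.57) without. The lowest ratio with bias factors, 0.93 (0.58 to 1.47), was that of chr6:480001-481000 and chr6:482001-483000, with 25 contacts at N1 and 92 at C0, and its interval held 1.

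The highest ratio with bias factors belonged to a bin with several shared partners. chr23:238001-239000 and chr23:247001-248000 shared 20 contacts at N1 and 45 at C0, 10.5 times the expected count at N1 and 2.98 times at C0, a ratio of 3.52 (1.97 to 6.09). Without bias factors it was 1.30 (0.73 to 2.25). The bin chr23:238001-239000 had 5 cis partners in both groups and the same ones, the most of any bin in the shared set, and is named for that after the values were seen. With its other partners, at 2 to 5 kb on either side, it shared 28, 33, 20 and 18 contacts at N1 and 44, 79, 58 and 56 at C0. Its bias factor was 0.605 at N1 and 1.03 at C0, so this bin is an example of how the factor moved with the ratio.

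Among cis pairs listed at N1 only, counts were like those of the shared pairs at N1. The median was 30 contacts (range 4 to 76) at 4.20 times the expected count, against 29 contacts and 4.65 times for the shared pairs. The highest counts were again at 2 kb. chr3:306001-307000 and chr3:308001-309000 shared 76 contacts at N1, which was 3.69 times the expected count (2.90 to 4.61) and the highest count of the N1 list. chr1:358001-359000 and chr1:360001-361000 shared 70 contacts, 2.42 times the expected count (1.88 to 3.05). chr9:73001-74000 and chr9:75001-76000 shared 69 contacts, 5.62 times the expected count (4.37 to 7.11), and chr14:730001-731000 and chr14:732001-733000 shared 68 contacts, 5.09 times (3.95 to 6.46).

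How few contacts such pairs had at C0 can be bounded where the C0 factors of both bins are known. This held for 43 of the 575 cis pairs at N1 only. Given the smallest count that C0 would have listed, they had at most 51 contacts at C0 in the median (11 to 97), against a median of 28 contacts at N1. The N1 observed over expected count was above that bound in all 43, by 1.95 times in the median and by 1.38 to 4.28 times over the pairs. That all 43 lay above it largely follows from the listing limits, since N1 required 1.39 times the fold that C0 did for an average pair at 2 kb and 2.01 times at 20 kb, and it is no sign of a change. With the N1 count scaled by the expected counts of an average pair instead, and the limit still set by the C0 factors, 35 of the 43 reached the C0 limit. For a further 29 cis pairs at N1 only (5.04%), 1 bin or both had no usable factor at C0. The lists hold no cis pair with such a bin, so these pairs were not listed whatever their count. For the remaining pairs the C0 factors are not in the files. With the N1 factors carried over, all 563 pairs at a distance found in both lists would have reached the C0 limit at an unchanged observed over expected count, which follows from the lower fold that C0 required and is no measurement of a change.

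The 2 widest margins above the C0 bound were at longer distances, on few contacts. chr9:915001-916000 and chr9:954001-955000, 39 kb apart, shared 8 contacts at N1, 26.0 times the expected count (11.2 to 51.3), and C0 would have listed them from 14 contacts. chr4:315001-316000 and chr4:398001-399000, 83 kb apart, shared 7 contacts at N1, 28.6 times the expected count (11.5 to 58.9), with a C0 limit of 12 contacts. The next margin was at 4 kb, where chr6:778001-779000 and chr6:782001-783000 shared 20 contacts at N1, 9.49 times the expected count (5.80 to 14.7), with a C0 limit of 42 contacts. With so few contacts, the observed over expected counts of the long pairs have wide intervals.

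Most cis pairs listed at C0 only would not have reached the N1 listing limit at an unchanged observed over expected count. They had a median of 45 contacts (range 5 to 168) at 3.09 times the expected count. Scaled by the expected counts, their median became 18.0 contacts at N1, against a median N1 limit of 24 with the C0 factors carried over. Of the 4083 pairs, 212 (5.19%, 4.53% to 5.92%) would have reached it. These were 195 of the 2376 pairs within 5 kb (8.21%), 8 of 1281 from 6 to 100 kb (0.625%) and 9 of 426 beyond 100 kb (2.11%). Without bias factors more did, since 782 of the 3473 pairs at distances found in both lists reached the limit of an average pair at N1 once their counts were scaled. Where the N1 factors of both bins are known, in 99 pairs, the C0 observed over expected count stayed below the N1 bound in all of them, at 0.90 of it at most. With the C0 count scaled by the expected counts instead, 50 of the 99 reached the N1 limit. With bias factors, absence from the N1 list thus gives no bound below the C0 level for any of those 99 pairs.

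Among the strongest contacts of NR cells that were not listed after 1 day of ND, the scaled counts lay near the N1 limit set with the C0 factors and well above that of an average pair, which was 33 contacts at N1. chr1:89001-90000 and chr1:91001-92000 shared 168 contacts at C0, 2.46 times the expected count (2.10 to 2.86). At an unchanged ratio this is 76.8 contacts at N1, where the limit was 67 with the C0 factors. chr5:247001-248000 and chr5:249001-250000 shared 160 contacts at C0, or 73.1 scaled to N1, with a limit of 65. chr1:602001-603000 and chr1:605001-606000 shared 149 contacts at C0, or 68.1 scaled to N1, below a limit of 76. The first pairs on chromosomes 1 and 5 are thus among the 212 that would have reached the N1 limit with the C0 factors carried over. For chr1:89001-90000 the N1 factor is known from a shared pair, and it was 0.822 against 1.55 at C0. For chr1:602001-603000 it is known in the same way, and it was 1.14 against 1.95 at C0. The limits of 67 and 76 and the scaled counts of 76.8 and 68.1 therefore do not hold with these N1 factors. The listing of both pairs at N1 cannot be foretold.

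At 2 kb, where both lists are longest, sharing followed the contact count in opposite ways in the 2 lists. In the top 25% of the 702 N1 pairs by contacts (38 to 76), 33.5% (26.6% to 41.0%) were also listed at C0, against 46.0% (38.5% to 53.7%) in the bottom 25% (17 to 26). By observed over expected count the order was the reverse, with 57.4% (49.7% to 64.8%) in the top 25% and 25.0% (18.8% to 32.1%) in the bottom 25%. In the C0 list, 31.4% (26.7% to 36.4%) of the 369 pairs with the most contacts (81 to 206) were also listed at N1, against 8.94% (6.24% to 12.3%) of those with the fewest (26 to 50). The shares by observed over expected count at C0 lay between 12.5% and 22.5%.

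**Figure D4:**
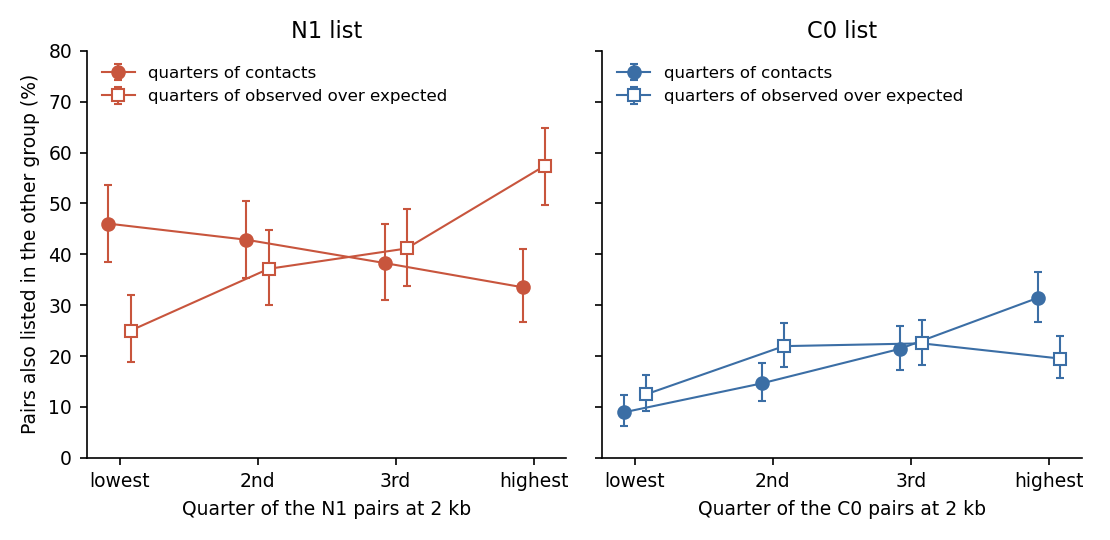
Share of the bin pairs 2 kb apart that are also in the other group's list (y axis, %) in 4 equal groups from the lowest to the highest contact count (filled circles) or observed over expected count (open squares), for the N1 list (left) and the C0 list (right); lines are 95% exact binomial intervals. In the group with the most contacts, the share is 33.5% at N1, the lowest of its 4 groups, and 31.4% at C0, the highest of its 4.

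Contacts that join opposite ends of a chromosome took a smaller part of the list at N1. One bin in the first 20 kb and the other in the last 20 kb of a chromosome were found in 18 of 948 cis pairs at N1 (1.90%, 1.13% to 2.98%) and in 334 of 4456 at C0 (7.5%, 6.74% to 8.31%), with the last base taken as the highest listed position. Of these, 12 were at N1 only, 328 at C0 only and 6 shared. The pairs at C0 only had a median of 7 contacts, or 2.56 scaled to N1, against a median N1 limit of 5 contacts, and 9 of the 328 would have reached that limit. The smaller share at N1 thus cannot be told apart from the lower depth.

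The 6 shared pairs beyond 100 kb all joined opposite ends, on 6 chromosomes. The first bin of chromosome 28 and chr28:584001-585000 shared 11 contacts at N1 and 24 at C0, 109 times the expected count at N1 and 68.7 times at C0. The first bin of chromosome 9 and chr9:1285001-1286000 shared 6 contacts at N1 and 13 at C0. The first bin of chromosome 21 and chr21:833001-834000 shared 5 contacts at N1 and 19 at C0, at 186 and 103 times the expected counts at N1 and C0. The others, on chromosomes 27, 22 and 19, had 6, 5 and 5 contacts at N1 and 8, 6 and 8 at C0. In all 6 the interval of the N1 over C0 ratio held 1, with and without bias factors. At N1 only, the highest observed over expected count beyond 10 kb was that of chr15:20001-21000 and chr15:981001-982000, with 5 contacts at 181 times the expected count (58.9 to 424). The second bin is also part of the strongest shared pair, chr15:981001-982000 with chr15:983001-984000.

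Near chromosome ends, the sets differed in the pairs that join opposite ends. Pairs with both bins within 20 kb of an end, the same or the opposite one, were 48 of 575 cis pairs at N1 only (8.35%, 6.22% to 10.9%), 639 of 4083 at C0 only (15.7%, 14.5% to 16.8%) and 35 of 373 shared pairs (9.38%, 6.62% to 12.8%). Both bins near the same end were found in 36 pairs at N1 only (6.26%, 4.42% to 8.56%), 311 at C0 only (7.62%, 6.82% to 8.47%) and 29 shared ones (7.77%, 5.27% to 11%), with intervals that overlap. The outermost 10% of the length at either end of the chromosomes held 21.3% of the bin positions of cis pairs at N1 only, 28.4% of those at C0 only and 17.8% of those of shared pairs, where an even spread over the length would give 20%.

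The trans pairs of the 2 groups lay in different places. At N1 only, 93 trans pairs were spread over 83 of the chromosome pairs, with at most 3 on any of them. At C0 only, 582 lay on 247 chromosome pairs, with 93 between chromosomes 3 and 15, 63 between 9 and 15 and 21 between 3 and 9. Those 3 combinations held 1, 2 and 0 of the pairs at N1 only. They were thus 3.23% of the trans pairs at N1 only (0.670% to 9.14%) and 30.4% of those at C0 only (26.7% to 34.3%). Trans pairs with both bins within 20 kb of a chromosome end were 4.30% at N1 only (4 of 93, 1.18% to 10.6%) and 43.8% at C0 only (255 of 582, 39.7% to 48.0%).

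Depth and bias factors differed along with the trans pairs. Pairs of bins without a usable factor were 5 of 93 at N1 only and 198 of 582 at C0 only, among them 95 of the 177 between chromosomes 3, 9 and 15 and 35 of the 255 at chromosome ends. The median trans pair had 4 contacts at N1 only and 5 at C0 only. With the C0 factors carried over, 4 of the 582 pairs at C0 only (0.687%) would have reached the N1 limit at an unchanged observed over expected count, and where the N1 factors of both bins are known, 3 of 42 would have. Pairs outside the ends and outside the 3 chromosome combinations numbered 86 of 93 at N1 only and 152 of 582 at C0 only. The trans pairs at N1 only thus lay almost wholly outside the ends and those combinations, and 62 of the 93 had 4 contacts or fewer. Low counts were common at C0 only too, where 163 of the 582 pairs had 4 contacts and 291 had 5. These counts lie near the listing limit of each group.

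The 5 shared trans pairs had similar counts in both groups, except the pair on chromosomes 24 and 30, which had more at N1. chr24:103001-104000 and chr30:333001-334000 shared 15 contacts at N1 and 8 at C0. chr1:1378001-1379000 and chr29:545001-546000 shared 10 contacts at N1 and 9 at C0. The same bin of chromosome 29 shared 5 contacts at N1 and 4 at C0 with chr12:20001-21000, so 2 of the shared pairs have this bin in common.

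In those pairs, equal counts stand for different observed over expected counts, because the expected count was lower at N1. The N1 over C0 ratio without bias factors was 5.85 (2.33 to 15.9) for chromosomes 24 and 30 and 3.47 (1.27 to 9.64) for chromosomes 1 and 29, and the interval held 1 for the other 3. With bias factors it was 11 (4.37 to 29.9) and 4.83 (1.76 to 13.4) for the same pairs. The listing limits bear on these ratios. An average trans pair needed 4 contacts at N1, where 0.0137 were expected, and 5 at C0, where 0.0426 were expected. A shared pair thus had to stand further above its expected count at N1, which favours ratios above 1. chr18:232001-233000 and chr21:306001-307000 shared 6 contacts in each group, and chr15:146001-147000 and chr22:151001-152000 shared 4 in each. None of the 5 pairs lay with both bins within 20 kb of a chromosome end.

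The trans pair with the most contacts at N1 was not in the C0 list. chr1:1445001-1446000 and chr7:4001-5000 shared 18 contacts at N1, 1087 times the expected count (644 to 1718). The chromosome 1 bin had no usable factor at C0, while the chromosome 7 bin had one of 1.37, and neither list holds a pair that joins a bin with a usable factor to one without. The pair was thus not comparable, and 3 more trans pairs at N1 only had a bin without a usable factor at C0. The next highest counts at N1 only were 9 contacts for chr10:61001-62000 and chr27:65001-66000, and 7 for chr2:145001-146000 and chr19:66001-67000. An average trans pair needed 5 contacts at C0, against 28.1 and 21.8 for these pairs when the N1 counts are scaled. Their C0 factors are not in the files. All 93 trans pairs at N1 only would have reached the limit of an average pair in this way. That follows from the lower fold that C0 required and is no measurement of a change.

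For 3 trans pairs at N1 only the C0 factors of both bins are known, and each had 4 contacts at N1. Here too the higher fold needed at N1 places a listed pair above the C0 bound. The pair of chr21:2001-3000 and the first bin of chromosome 30 would have been listed at C0 from 5 contacts, which put its N1 observed over expected count 4.62 times above the C0 bound. That of chr26:6001-7000 and chr29:3001-4000 was 4.62 times above as well, and that of chr8:1272001-1273000 and the first bin of chromosome 12 was 1.65 times above. All of these bins lie close to the start of a chromosome, except the one on chromosome 8, which is near the highest listed position.

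The cis pairs of both groups were spread over all 30 chromosomes. Pairs at N1 only numbered 3 to 39 per chromosome, or 5.98 to 29.3 per Mb, and pairs at C0 only 62 to 267, or 88.6 to 229 per Mb. Chromosome 7 had the most at N1 only per Mb (39 pairs, 29.3 per Mb) and 150 per Mb at C0 only. Chromosome 30, the shortest by listed position, had the fewest at N1 only (3 pairs, 5.98 per Mb) and the most at C0 only (115 pairs, 229 per Mb). Chromosome 30 was thus at opposite extremes in the 2 sets, on only 3 pairs at N1 only. The order over all chromosomes was not compared.

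The share of the N1 cis list that was also listed at C0 ran from 21.4% on chromosome 25 (3 of 14, 4.66% to 50.8%) to 72.7% on chromosome 30 (8 of 11, 39.0% to 94.0%). On all 30 chromosomes the interval held the overall 39.3%. With 11 to 58 N1 cis pairs per chromosome the intervals were wide, so a difference between chromosomes could hardly have shown. Of the C0 list, 2.91% was also listed at N1 on chromosome 25 (3 of 103) and 17.5% on chromosome 22 (14 of 80), and the interval held the overall share on 27 of the 30 chromosomes. It lay above the overall share on chromosomes 6 and 22 and below it on chromosome 25.

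**Figure D5:**
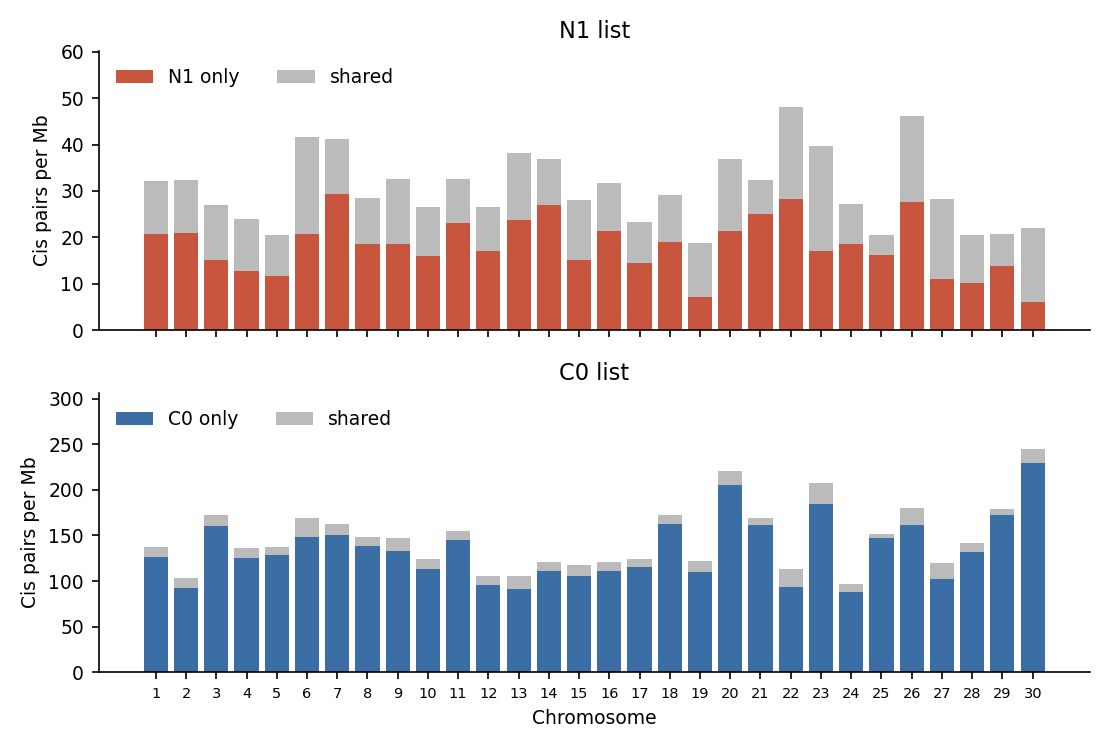
Cis bin pairs per Mb (y axis) on each of the 30 chromosomes (x axis) in the N1 list (top) and the C0 list (bottom), split into pairs listed in 1 group only (colour) and shared pairs (grey); the y axes differ in range. Chromosome 30 has the lowest density at N1 only (5.98 per Mb) and the highest at C0 only (229 per Mb).

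Within chromosomes, the pairs at N1 only were spread over many windows. In windows of 50 kb, counting pairs that span at most 50 kb, 287 of 632 windows held no pair at N1 only, and no window held more than 6. Of the 345 windows with pairs at N1 only, 331 (95.9%) also held pairs at C0 only, close to the 595 of all 632 windows (94.1%) that did. The window with the most at N1 only, at chr14:500001-550000, had 6 at N1 only, 13 at C0 only and 1 shared. Pairs at C0 only reached 29 in the window at chr14:650001-700000, which held 0 at N1 only and 1 shared. These windows were chosen after their values were seen. The window richest in shared pairs, at chr23:200001-250000, had 7 shared pairs, with 0 at N1 only and 3 at C0 only, and it contains the bin with 5 shared partners.

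The most partners of any bin were 4 in the pairs at N1 only and 24 in those at C0 only, but partners per bin increase with the length of a list, so these numbers do not compare the groups. Of the 1061 bins in cis pairs at N1 only, 986 (92.9%) had a single partner in the set. Of the 4536 bins in cis pairs at C0 only, 2847 (62.8%) had a single partner. The bin with 4 partners at N1 only, chr23:18001-19000, had 4 other cis partners at C0. The bin chr21:343001-344000 had 24 cis partners at C0, with 11 to 116 contacts each, and 0 at N1. At an unchanged observed over expected count and with the C0 factors carried over, 6 of the 24 would have reached the N1 limit. chr3:333001-334000 and chr3:915001-916000 had 20 and 18 partners at C0 and 0 at N1, and 6 and 5 of these would have reached it. These bins were chosen for their number of partners at C0 only, and their N1 factors are not in the files. A bin without a usable factor at N1 would not be in the cis list whatever its counts, so their absence from the N1 list is not a measured loss of contacts.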

How the data were processed

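Hi-C libraries of 2 replicates each of N1 and C0 were used, out of 6 libraries in the series. As the study's methods describe, the authors trimmed reads with Trimmomatic, mapped them to version V2 of the IMET1 genome with the ICE package, pooled the replicates, called interactions with Fit-Hi-C and kept those with a contact count above 2 and a p-value and q-value below 0.01. The submitters' processing notes name HiC-Pro and edgeR. The methods give 10-kb bins, whereas the deposited lists hold 1-kb bins. For the HiC-Pro step they also give a minimum cis distance of 4 kb. The deposited lists hold 702 N1 and 1476 C0 cis pairs at 2 kb, and 77 and 539 at 3 kb. Each deposited row gives the raw contact count of a bin pair, its p-value and q-value, and a bias factor per bin, a score that is 1 for an average bin and -1 where the authors' calling gave no usable factor. Lists of the authors' own comparisons, which hold bin pair names, were not used.

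Pairs were matched on identical bins at both ends. For the expected count, the Poisson mean was solved for that gives the deposited p-value as the probability of the observed contacts or more, and dividing it by both bias factors gave the expected count of an average pair at that distance. The listing limit was the smallest count whose Poisson upper tail reaches the largest listed p-value of the group. At distances absent from the N1 list the expected count was interpolated on log scales. Intervals are exact 95% Poisson, binomial or conditional ones and cover counting error only, since reads are not independent molecules. Chromosome ends were the first and the highest position in the lists, and coordinates are 1-based. The recovery and the matching were tested on simulated data. Python 3.11.15, NumPy 2.4.6, SciPy 1.17.1, pandas 2.3.3 and matplotlib 3.10.9 were used. Alternatives were a stricter q-value, a higher contact minimum, distances from 4 kb, looser matching, usable factors only, dropping the bias factors, library totals as depth without them and, added after seeing the data, with them, other end widths, the lower bound of the N1 count, and leaving out the chromosome with the most N1 pairs.

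The bin pairs described were drawn from those with the 5 highest counts of each set, the 3 highest observed over expected counts beyond 10 kb, the 5 highest and 5 lowest ratios, all shared trans pairs, and the bins with most partners at N1 only and C0 only. Those with known factors in both groups, the 6 shared pairs beyond 100 kb and the 50-kb windows were chosen after their values were seen. The members and the lists were chosen with earlier results of these data known.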

Additional observations from a re-analysis of the deposited data

How the results depend on the processing

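No paired analysis was possible because the replicates of each group were pooled before the interactions were called. No replicate was left out in turn, since the lists hold pooled replicates. Each group is 1 pooled value, and N1 had fewer valid pairs than C0 from similar numbers of mapped reads. A pair that is not listed has only an upper bound. The sets therefore describe these lists and not the spread between cultures. The shift of the shared cis pairs reversed where the bias factors were dropped. The median N1 over C0 ratio of 1.68 became 0.89 without them, and 0.90 with depth taken from the library totals and no bias factors. With library totals and the factors kept, a setting chosen after seeing the data, it was 1.70. It was 1.74 at a q-value below 0.001 and 2.03 from 4 kb on.

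At a q-value below 0.001, 382 cis pairs were at N1 only and 231 shared, 333 trans pairs were at C0 only and 3 shared, and pairs within 5 kb were 91.9% at N1 only and 63.3% at C0 only. With at least 10 contacts in cis and 5 in trans, 32 trans pairs were at N1 only and 3 shared, and pairs within 5 kb were 90.6% at N1 only and 63.5% at C0 only. From 4 kb on, 116 cis pairs were at N1 only, 2388 at C0 only and 53 shared, which is 31.4% of the N1 list and 2.17% of the C0 list, and pairs within 5 kb were 37.9%, 28.5% and 58.5% of these sets. A match within 1 bin gave 48.3% of the N1 list and 12.1% of the C0 list. A match within 5 bins gave 73.9% and 31.3%, with 701 N1 cis pairs matched and 247 not. With usable factors only, 384 trans pairs were at C0 only. Pairs with both bins within 10 kb of an end were 5.57% at N1 only and 8.45% at C0 only in cis, and 32.8% at C0 only in trans. Within 50 kb they were 12.2% at N1 only, 21.3% at C0 only and 12.9% of shared pairs in cis, and 48.5% at C0 only in trans. Over bins listed in both groups, the median bias factor was 0.801 at N1 and 1.07 at C0.

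In the other 48 combinations of a value and an alternative, the value kept its direction and stayed within 1.5 times, for a count, or within its interval, for a share or median. Among them, leaving out chromosome 6, which had the most N1 cis pairs, moved no value further. The cause of the other differences was not tested.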
